A study of Homo sapiens with 6 samples.

Results

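The genes described here are 9 transcripts known as targets of the transcription factor NRF2: SLC7A11, GCLC, GCLM, GSR, TXN, TXNRD1, SRXN1, NQO1 and OSGIN1. Except for NQO1 and OSGIN1, they serve the glutathione and thioredoxin systems. The 9 genes were taken by symbol from a table of 13439 genes, where all 9 were listed and all 9 were among the 11069 genes tested. The samples were 6 RNA-seq libraries of Saos-2, an established human osteosarcoma cell line, grown in medium with fetal bovine serum. In 3 libraries the cells had received 0.20 µM AIL (ailanthone, a plant quassinoid) for 24 h, a dose the labels call the IC50, and in 3 they had received the solvent DMSO for the same time. The labels call the replicates biological without saying how cultures were kept apart, so the p-values rest on the spread between these 6 samples. Those of limma also borrow spread from other genes.

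Glutathione is a cysteine-containing tripeptide that cells keep in a reduced form and spend on peroxides and electrophiles, and thioredoxin is a small protein that reduces disulfides in other proteins. Both are recharged with electrons from NADPH, glutathione by glutathione reductase and thioredoxin by thioredoxin reductase. NRF2, encoded by NFE2L2, is held at low levels by KEAP1 and a CUL3 ubiquitin ligase. Oxidants and electrophiles release it from that control, after which it pairs with a small MAF protein and binds antioxidant response elements near its target genes.

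Since the 9 genes share this regulator by reputation, their upstream sequence was read for the core of the antioxidant response element, TGACNNNGC, on both strands. The RefSeq promoter table for GRCh38.p14 gave 7 of the 9 genes, with SLC7A11 among those without an entry, and TXNRD1 had entries for more than 1 start. In the 250 bases before the start, 2 of the 7 genes, GCLM and TXNRD1, held the core. The same window held it in 10.9% of all 35116 promoters of the table. That share is per promoter, while the 2 of 7 is per gene, whichever of its starts held the core. A related motif, the AP-1 site TGANTCA, was present in 6.57% of all windows and, of the 7 genes, in OSGIN1 alone, and it did not overlap a match of the other motif. The 4 stretches with a match are printed 5′ to 3′ on the strand of the gene, with the match in capitals, because they allow the letters of a gene that rose to be set beside those of a gene that did not.
GCLM, chr1:93909431-93909489, minus strand, core on the opposite strand: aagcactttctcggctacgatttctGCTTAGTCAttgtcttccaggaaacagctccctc
TXNRD1, upstream start, chr12:104215655-104215713, plus strand, core on the strand of the gene: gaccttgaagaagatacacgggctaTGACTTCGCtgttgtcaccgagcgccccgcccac
TXNRD1, downstream start, chr12:104286905-104286963, plus strand, core on the opposite strand: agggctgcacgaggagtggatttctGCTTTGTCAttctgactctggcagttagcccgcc
OSGIN1, chr16:83953118-83953174, plus strand, AP-1 site: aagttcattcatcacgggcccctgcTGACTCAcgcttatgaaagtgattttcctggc
The core lay 34 to 26 bases before the start of GCLM, 99 to 91 bases before the upstream start of TXNRD1 and 102 to 94 bases before its downstream start. The AP-1 site of OSGIN1 lay 97 to 91 bases before the start. These are matches of letters, and binding was not measured. Elements farther from the start were not searched.

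Of the 9 genes, 6 rose under AIL, 1 fell and 2 did not pass the test. NQO1, TXNRD1, TXN, SLC7A11, SRXN1 and OSGIN1 rose, GSR fell, and both subunits of glutamate-cysteine ligase, GCLC and GCLM, were not called. The increases ran from 11.3% for SRXN1 to 164% for OSGIN1 in mean CPM, the TMM-normalized unit of the table the authors deposited. Differences on the log2 scale are AIL minus DMSO of log2(CPM + 1), which understates the change of low genes, and a gene was called at a limma adjusted p under 0.05 over all genes tested. The comparison was broad, since 54.1% of the tested genes were called, 28.2% higher and 25.9% lower under AIL. Against that background 6 of 9 stood higher and 1 of 9 lower. The median log2 difference of the 9 genes was 0.19, and that of all tested genes was 0.01. Groups did not overlap for 7 of the 9 genes, against 60.1% of all tested genes.

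**Figure D1:**
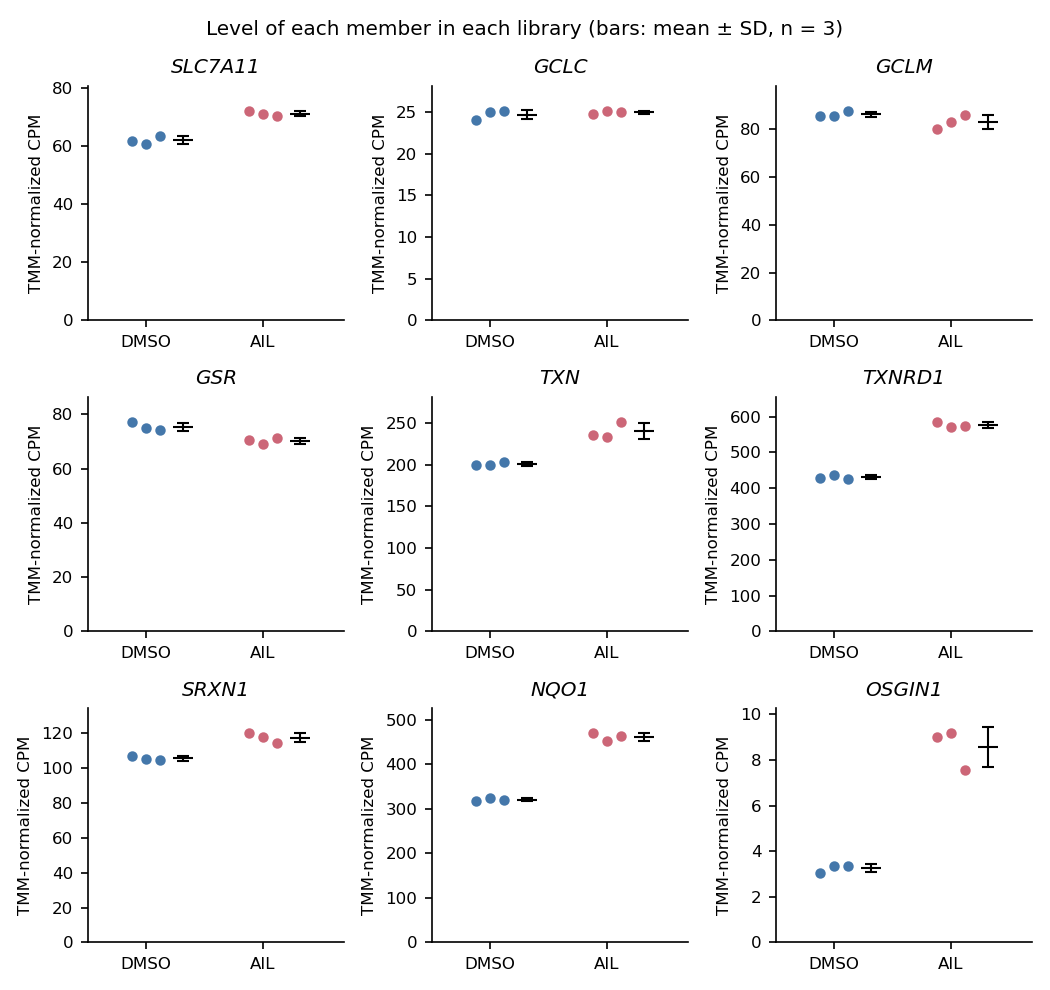
TMM-normalized CPM of each of the 9 genes in the 3 DMSO and 3 AIL libraries, 1 panel per gene with its own axis from 0, points for libraries and bars for the mean ± SD. The groups are separate for 7 genes and overlap for GCLC and GCLM.

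The libraries were similar in depth. Low values were whole multiples of a fixed step that corresponds to 1 read, which put the scaled depth between 32544416 and 35834281 reads in the DMSO libraries and between 35909656 and 38048117 in the AIL libraries. AIL replicate 3 differed from the other AIL libraries by 1.96 and 2.29 times counting noise, and the remaining pairs of replicates by 1.22 to 1.47 times. Of 13 transcripts encoded by the mitochondrial genome 10 fell, against 25.9% of all tested genes, and the other 3 were not called. The summed level of these transcripts was 4205 to 4374 CPM under DMSO and 3600 to 3726 CPM under AIL. Their part in the results below was not tested. Markers of the osteoblast lineage were sparse: RUNX2 stood at 4.66 ± 0.295 CPM under DMSO (SD, n = 3), while SPARC, SPP1 and BGLAP were at or near 0. Of 11 markers of other cell types 3 were measured, of which CDH5 and VWF were near 0 in every library and CD68, also a lysosomal protein of many cells, rose from 0.763 ± 0.0306 to 2.95 ± 0.412 CPM. Their summed level was 0.76 to 0.94 CPM under DMSO and 2.62 to 3.40 CPM under AIL. In bulk samples a change in the make-up of the cells and a change in RNA per cell cannot be told apart.

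Cystine uptake is the entry to glutathione synthesis, and SLC7A11 encodes xCT, the light chain of the exchanger that imports cystine and releases glutamate. SLC7A11 read 61.79, 60.72 and 63.60 CPM in the DMSO libraries and 72.01, 70.86 and 70.37 CPM in the AIL libraries. Each AIL library lay above each DMSO library, and the spread within a group was small beside the gap. The increase was 14.6% in mean CPM, or 0.19 in log2 (SE 0.0323, limma adjusted p = 7.35e-05). It rested on 2006 to 2279 reads per DMSO library and 2527 to 2740 reads per AIL library. Some 8.92% of the 50-base words of its annotated transcripts occur on the opposite strand of other genes, foremost SLC7A11-AS1, and whether the authors' counting used strand is not given in the sources used here.

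xCT works as a dimer with the heavy chain 4F2hc, the product of SLC3A2, which also carries other amino acid transporters to the membrane. SLC3A2 was at 257.1 ± 6.52 CPM under DMSO and rose to 291.1 ± 7.38 CPM under AIL (SD, n = 3; log2 difference 0.18, limma adjusted p = 3.42e-05). Within each library, the CPM of SLC7A11 was 0.235, 0.243 and 0.247 of that of SLC3A2 under DMSO and 0.241, 0.244 and 0.248 under AIL. The groups overlapped, and the mean log2 ratio differed by 0.015 (exact two-sided permutation test, p = 0.60). Without DMSO replicate 1 the difference was -0.0055.

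Glutamate-cysteine ligase makes γ-glutamylcysteine, the rate-limiting step of glutathione synthesis. GCLC encodes its catalytic subunit and GCLM the modifier subunit that raises its affinity for glutamate. GCLC gave 24.06, 24.97 and 25.09 CPM under DMSO and 24.84, 25.13 and 24.98 CPM under AIL. All 3 AIL values lay within or just above the range of the DMSO values. The log2 difference was 0.016 with a 95% interval from -0.08 to 0.11 (limma adjusted p = 0.783), so the interval leaves room for a small change in either direction. Reads for GCLC numbered 783 to 899 per DMSO library and 897 to 945 per AIL library.

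GCLM read 85.58, 85.57 and 87.63 CPM in the DMSO libraries and 80.14, 83.05 and 85.99 CPM in the AIL libraries. AIL replicates 1 and 2 were below all DMSO libraries, and AIL replicate 3 was inside their range. The mean difference was -3.71%, or -0.05 on the log2 scale, with a 95% interval from -0.12 to 0.014 (limma adjusted p = 0.167). Leaving out AIL replicate 3 gave -0.08 and a limma adjusted p of 0.0324, so the side of the threshold on which GCLM stood turned on 1 library. The upper end of the interval for GCLM was below the lower end of the interval for SLC7A11, which stood at 0.13. The log2 ratio of GCLM to GCLC was 1.79, 1.74 and 1.76 under DMSO and 1.65, 1.69 and 1.74 under AIL. Its groups overlapped and the means differed by -0.07 (exact two-sided permutation test, p = 0.20).

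GSR encodes glutathione reductase, which returns oxidised glutathione to its reduced form with NADPH. It was the member that fell. GSR measured 77.19, 74.98 and 74.43 CPM under DMSO and 70.57, 69.06 and 71.23 CPM under AIL, with every AIL library below every DMSO library. The decrease was small, at -6.95% of mean CPM and -0.10 on the log2 scale (SE 0.0314, limma adjusted p = 0.0108). The call depended on DMSO replicate 1, the highest of the 6 values, since without it the log2 difference was -0.09 with a limma adjusted p of 0.0640. No 50-base word of GSR occurred in another annotated gene.

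**Figure D2:**
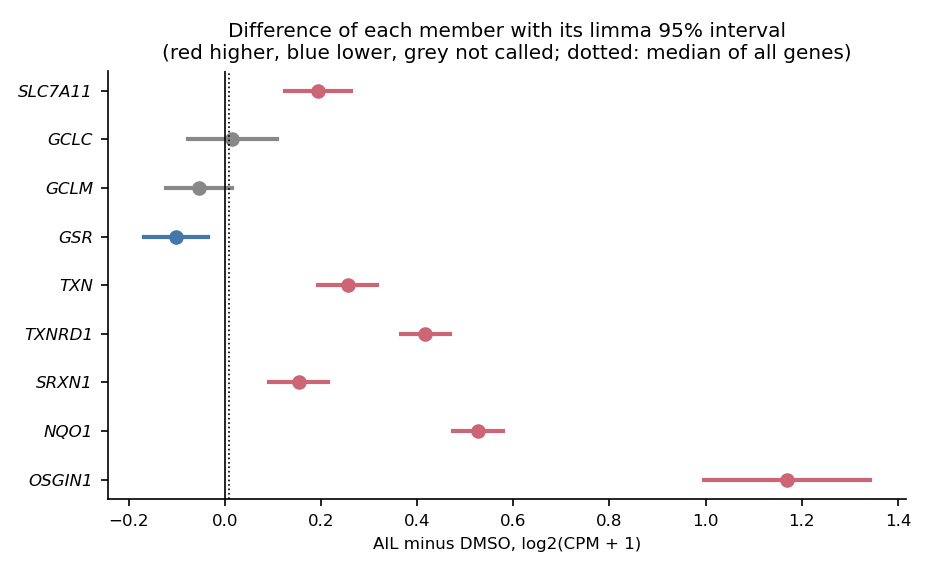
Log2 difference of each gene, AIL minus DMSO of log2(CPM + 1), as points with the 95% interval of limma, ordered from the glutathione genes to the thioredoxin genes and then NQO1 and OSGIN1. The intervals of GCLC and GCLM span 0, GSR lies below 0 and the other genes lie above 0, up to 1.17 for OSGIN1.

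Of the thioredoxin genes among the 9, TXN, TXNRD1 and SRXN1 rose. TXN encodes cytosolic thioredoxin, and it read 198.99, 199.59 and 203.58 CPM under DMSO against 235.65, 233.06 and 250.88 CPM under AIL. The groups were apart, with AIL replicate 3 the highest. Mean TXN was 200.7 ± 2.49 CPM under DMSO and 239.9 ± 9.63 CPM under AIL (SD, n = 3). The increase of 19.5% gave a log2 difference of 0.26 (SE 0.0294, limma adjusted p = 1.29e-06). Of its 50-base words, 3.34% also occur in processed copies such as TXNP5.

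TXNRD1 encodes the cytosolic thioredoxin reductase, a selenoprotein that reduces thioredoxin with NADPH. The values were 429.81, 438.36 and 426.94 CPM in the DMSO libraries and 584.81, 570.32 and 574.61 CPM in the AIL libraries. The lowest AIL library was well above the highest DMSO library, and both groups were tight. The increase of 33.6% gave a log2 difference of 0.42 (SE 0.0240, limma adjusted p = 3.35e-10). This placed TXNRD1 above 96.1% of all tested genes by log2 difference. No 50-base word of TXNRD1 was shared with another annotated gene.

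The log2 difference was 0.42 for the reductase and 0.26 for its substrate. The log2 ratio of TXNRD1 to TXN was 1.11, 1.13 and 1.06 under DMSO and 1.31, 1.29 and 1.19 under AIL, without overlap. The means differed by 0.16 (exact two-sided permutation test, p = 0.10). TXNRD1 and GSR are related flavoprotein reductases that recharge the 2 systems, and here they moved in opposite directions. The log2 ratio of TXNRD1 to GSR went from 2.46, 2.53 and 2.50 under DMSO to 3.03, 3.03 and 2.99 under AIL. That difference of 0.52 was more than 10 times the SD within either group, which was 0.0351 under DMSO and 0.0209 under AIL. With 3 against 3 samples the smallest two-sided exact permutation p is 0.10, so no ratio could pass 0.05. Adjusted over the 4 ratios computed, the exact permutation p-values were 0.20 for both ratios of TXNRD1, 0.267 for GCLM to GCLC and 0.60 for SLC7A11 to SLC3A2.

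**Figure D3:**
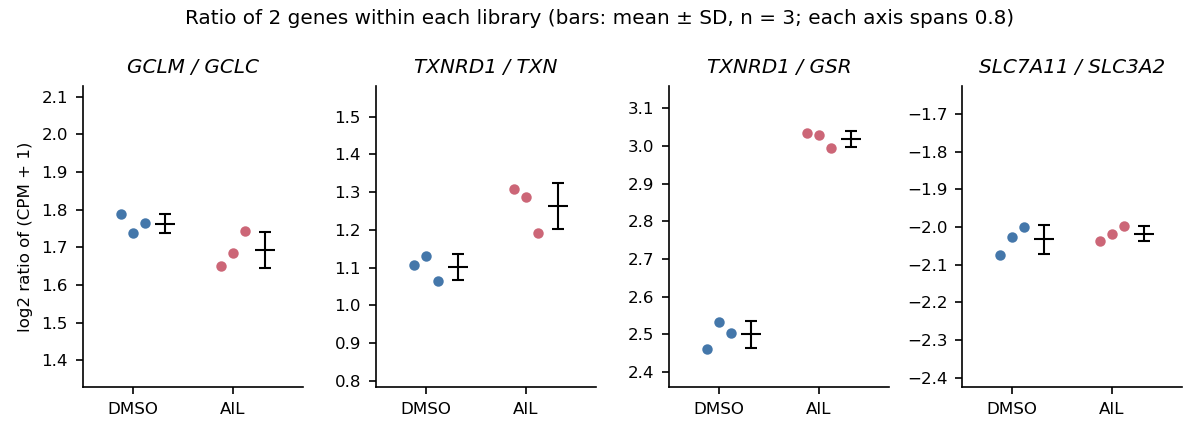
Log2 ratio of (CPM + 1) of 2 genes within each library, for the 3 DMSO and 3 AIL libraries, with bars for the mean ± SD and axes of equal span. The ratio of TXNRD1 to GSR is 0.52 higher under AIL, that of TXNRD1 to TXN is 0.16 higher, and the other ratios overlap between the groups.

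SRXN1 encodes sulfiredoxin, which repairs peroxiredoxins whose active cysteine has been over-oxidised. It gave 106.69, 105.37 and 104.29 CPM under DMSO and 119.95, 117.77 and 114.43 CPM under AIL, and the groups did not overlap. The increase of 11.3% corresponds to a log2 difference of 0.15 (SE 0.0289, limma adjusted p = 2.48e-04). It was the smallest of the 6 increases as a percentage of mean CPM. The value is uncertain in its gene, because 84.7% of the 50-base words of SRXN1 also belong to AL121758.1, an overlapping annotated gene on the same strand.

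NQO1, a quinone reductase that carries out a reduction by an electron pair and so avoids semiquinones, is widely used as a readout of NRF2. It stood at 316.80, 323.39 and 319.61 CPM under DMSO and 469.83, 452.32 and 462.58 CPM under AIL. The difference between group means was far larger than the SD of 3.31 CPM under DMSO and 8.80 CPM under AIL (n = 3). NQO1 rose by 44.3%, or 0.53 in log2 (SE 0.0246, limma adjusted p = 3.11e-11). The log2 difference was above that of 98.4% of tested genes. Some 15.3% of the 50-base words of NQO1 match the opposite strand of transcripts of other annotated genes, foremost AC092115.2. Where those genes lie was not examined.

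OSGIN1, named oxidative stress induced growth inhibitor, had the lowest CPM values of the 9 genes and the largest log2 difference. Its values were 3.04, 3.36 and 3.35 CPM in the DMSO libraries and 8.99, 9.18 and 7.57 CPM in the AIL libraries. All AIL libraries were more than 2 times as high as any DMSO library, and AIL replicate 3 was the lowest of them. The ratio of means was 2.64-fold, and the log2 difference was 1.17 (SE 0.0817, limma adjusted p = 3.52e-09). Depth limits this gene most, with 99 to 120 reads per DMSO library and 272 to 342 reads per AIL library. Because its level is low, the size depended on the pseudocount, with log2 differences of 1.37 at 0.1 CPM and 0.72 at 5 CPM. Of its 50-base words 12.1% also occur in AC009119.2, an overlapping locus.

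The 6 increases and their calls held under each of the 14 alternatives computed, including scaling by median of ratios, quantile normalization and each left-out library. Over these, the log2 difference of NQO1 ranged from 0.51 to 0.54, that of TXNRD1 from 0.39 to 0.43 and that of TXN from 0.22 to 0.28. SLC7A11 ranged from 0.18 to 0.21 and SRXN1 from 0.14 to 0.18. The size of the p-values leaned on the intensity trend, which lets the spread borrowed from other genes depend on expression level. Without the trend, spread was still borrowed from other genes. The limma adjusted p was then 4.55e-05 for NQO1 and OSGIN1 and 8.44e-05 for TXNRD1. It was 0.00136 for TXN, 0.00221 for SLC7A11 and 0.0062 for SRXN1.

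Outside the 9 genes, the profile most like their mean standardized profile over the 6 libraries was that of CHAC2, which encodes a γ-glutamylcyclotransferase that breaks glutathione down (Pearson r = 0.999, n = 6 libraries). POGK, EIF2B5, PMPCB and ZMYND11 followed at r = 0.997 each. Such likeness was common, because treatment separates the libraries: 876 of the 9714 genes that averaged 5 CPM or more, or 9.02%, had r above 0.95. Among the 9 genes themselves r with the mean profile was 0.88 to 0.98 for the 6 that rose, 0.54 for GCLC, -0.52 for GCLM and -0.94 for GSR. Each of the 9 genes is part of that mean, so these r values only describe how each relates to it.

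Beside the 9 genes, other genes of the 2 systems moved both ways, as did all tested genes. Over all tested genes 28.2% were called higher and 25.9% lower, and the counts of each list below stand beside those shares. Of 17 tested further glutathione genes, 8 rose and 5 fell, with a median log2 difference of 0.04. GSS, which completes glutathione synthesis downstream of GCLC and GCLM, rose by 0.32 on the log2 scale, with 71.9 ± 1.42 CPM under DMSO and 89.8 ± 2.95 CPM under AIL (SD, n = 3, limma adjusted p = 3.87e-07). CHAC2 and the glutaredoxin gene GLRX2 rose by 0.28 and 0.36, while GGCT, of the γ-glutamyl cycle, had a log2 difference of -0.31 and the peroxidase gene GPX1 of -0.47, the lowest of the list. OPLAH, which opens 5-oxoproline, was lower by a log2 difference of -0.22 (limma adjusted p = 0.0236), a call lost without a filter on low values and without DMSO replicate 1, DMSO replicate 2 or AIL replicate 3, where the limma adjusted p was 0.0531, 0.0567, 0.0701 and 0.139. GGT7 (-0.14) and CHAC1 (-0.11) were not called, and with 1 library left out they ranged from -0.21 to -0.06 and from -0.16 to -0.025. GGT7 was lower at a limma adjusted p of 0.0296 with quantile normalization and 0.0381 without AIL replicate 1.

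Glutathione transferases and exporters gave 6 higher and 3 lower of 15 tested (median 0.013). GSTK1 and GSTO1 rose by 0.19 and 0.11 on the log2 scale, and ABCC3, a conjugate exporter gene, by 0.35. ABCC5 fell by 0.19, and GSTCD had a log2 difference of -0.12, which was not called without AIL replicate 2 (limma adjusted p = 0.0697). Without that library 1 gene of the list was called lower. GSTM4, GSTP1 and GSTT2 were not called, at -0.12, -0.0020 and 0.013, and GSTM4 ranged from -0.20 to -0.07 with 1 library left out.

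In the thioredoxin and peroxiredoxin list, 7 of 25 rose and 5 fell, against 28.2% and 25.9% of all tested genes. The median was 0.013 and became -0.0091 with quantile normalization. TXNRD2, the mitochondrial counterpart of TXNRD1, had the largest log2 difference of that list, 0.57, with 19.7 ± 0.486 CPM under DMSO and 29.8 ± 0.642 CPM under AIL (SD, n = 3, limma adjusted p = 1.33e-08). Mitochondrial thioredoxin, TXN2, was at 0.13 (limma adjusted p = 0.0215), but its adjusted p was 0.0539 with quantile normalization, 0.0823 without DMSO replicate 1 and 0.111 without AIL replicate 2. TXNRD3 was not called at -0.05, nor TXNL4A at 0.04, which was higher with quantile normalization (limma adjusted p = 0.0492). TXNL4B rose by 0.25, TXNL1 fell by 0.13 and TXNDC12, an endoplasmic reticulum member, fell by 0.34. SRXN1 acts on typical peroxiredoxins, and of these PRDX1, PRDX2 and PRDX4 were not called (0.05, -0.06 and 0.06), while PRDX3 fell by 0.09 on the log2 scale.

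Both GSR and TXNRD1 spend NADPH, and of 15 genes listed for its supply 3 rose and 6 fell (median -0.11). The list also holds pentose phosphate genes that do not form NADPH themselves, among them PGLS and RPE. In the pentose phosphate pathway, PGLS rose by 0.44 on the log2 scale, and PGD, which forms NADPH, fell by 0.29. RPE rose by 0.14, and IDH1, the cytosolic isocitrate dehydrogenase, fell by 0.52, the lowest of the list. RPIA (-0.11) and TKT (-0.04) were not called, and with 1 library left out they ranged from -0.14 to -0.06 and from -0.07 to -0.0028. RPIA was lower at a limma adjusted p of 0.0440 with quantile normalization and 0.0480 without DMSO replicate 1.

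Of 20 other genes known as NRF2 targets 8 rose and 4 fell, with a median log2 difference of 0.07. SQSTM1, HMOX1, FTL and FTH1, for autophagy, haem and iron, rose by 0.93, 0.72, 0.80 and 0.43. PIR, an iron-binding nuclear protein gene, fell by 0.43. FECH and SLC48A1, other haem genes of the list, were called lower, with log2 differences of -0.20 and -0.40. BLVRB rose by 0.36 and BLVRA was not called. The reductase genes AKR1A1 and AKR1B1 were not called at 0.03 and 0.06, though AKR1B1 was higher at a limma adjusted p of 0.0306 with the replicate number as a block, 0.0145 with quantile normalization and 0.0212 without AIL replicate 3. AKR1C1 and AKR1C3, often cited as NRF2 targets, stood below 0.3 CPM in the mean of each group and were not tested.

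**Figure D4:**
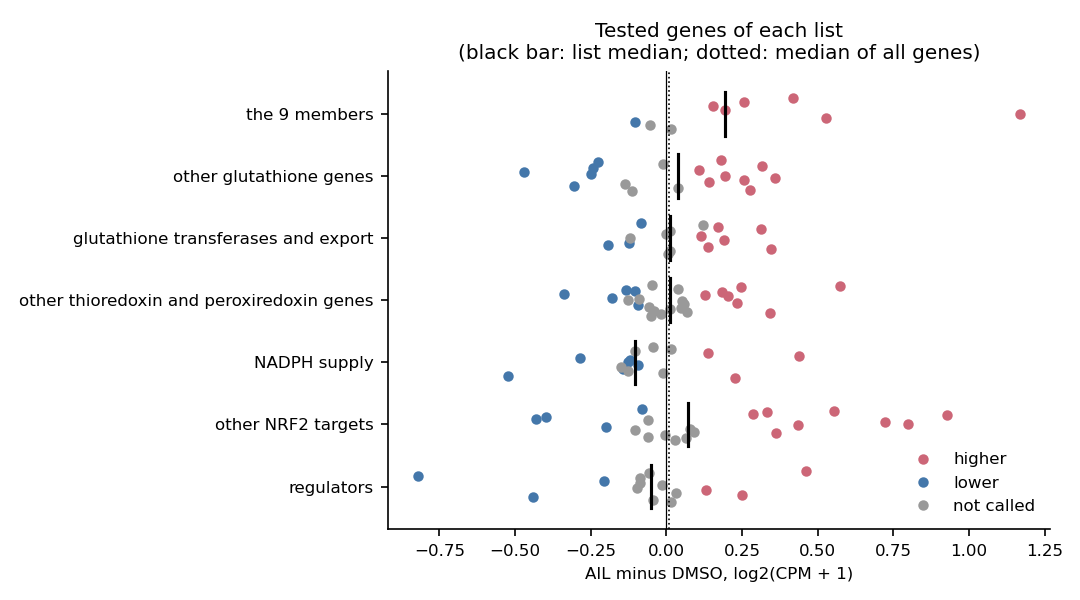
Log2 difference, AIL minus DMSO of log2(CPM + 1), of every tested gene of the 9 genes and of 6 lists around them, coloured by call, with a bar at each median. The 9 genes have a median of 0.19, and the other lists, with medians of -0.11 to 0.07, hold genes on both sides of 0.

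The transcript of NRF2 itself did not pass the main test, which did not pair the samples. NFE2L2 stood at 63.2 ± 2.16 CPM under DMSO and 59.4 ± 2.26 CPM under AIL (SD, n = 3), different by -0.09 in log2 with a limma adjusted p of 0.0557. It was lower at an adjusted p of 0.0273 with the replicate number as a block, 0.0383 with median-of-ratios scaling, 0.0314 without DMSO replicate 1 and 0.00559 without AIL replicate 3. KEAP1 was higher by 0.13 (limma adjusted p = 0.0116), a call lost without an intensity trend (adjusted p = 0.0546) and without AIL replicate 1 (adjusted p = 0.0820). Its ligase partners went apart, with CUL3 lower by a log2 difference of -0.44 and RBX1 higher by 0.46. The related factors NFE2L1 and NFE2L3 fell by 0.21 and 0.82. BACH1, a repressor at antioxidant response elements, was not called at 0.014, and neither was the small MAF gene MAFF at -0.10, which was lower at an adjusted p of 0.0303 with the block and 0.0442 without DMSO replicate 3. With 1 library left out, MAFF ranged from -0.14 to -0.05. Of the 14 regulators tested, 3 rose and 3 fell, and 5 fell with the block. NRF2 is regulated mainly through its protein, which was not measured.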

How the data were processed

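The authors deposited 1 table of TMM-normalized CPM by gene symbol, with 2 decimals, per the file name and values. RSEM and edgeR 3.8.5 are listed in the submitters' processing notes with no role. The aligner, build, annotation and strand setting were not given in the sources used here. The step of 1 read, 0.0263 to 0.0307 CPM, was estimated from low values. Below 2000 reads 99.95 to 99.98% of values came out whole with a tolerance of 0.2 reads, and 52.4 to 65.1% with one of 0.1. Rounding to 2 decimals can by itself move a value by more than 0.1 reads, so the narrower tolerance cannot tell whether values are whole. The deposited values were normalized CPM, and no count model was used.

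Genes that averaged 1 CPM or more were tested with limma 3.58.1 (R 4.3.3) on log2(CPM + 1), with an intensity trend, two-sided, Benjamini-Hochberg over 11069 genes. The script was tested on simulated data. Ratios within libraries used exact permutation tests (SciPy 1.17.1). Shared words came from GENCODE transcripts and promoters from RefSeq.

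Members and lists were chosen with earlier results of these data known. Named from each list were the first 6 tested genes and both extremes, plus SLC3A2, except that some list genes are not reported here. Peroxiredoxins, CUL3, FECH, SLC48A1, BLVRA, BLVRB and AKR1C genes were chosen after their values were seen. The 5 genes most alike were those of highest r.

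Deviations from group means correlated at 0.159, 0.133 and 0.129 between same-numbered DMSO and AIL libraries and at -0.179 to 0.0210 between others, so the numbers were taken to pair the samples, from the data alone. A fit with that block was an alternative, as were other pseudocounts, filters and scalings, and each library left out.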

Additional observations from a re-analysis of the deposited data

How the results depend on the processing

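The count of the 9 genes called higher was 6 under every alternative, and the count called lower was 1 except when libraries were left out, where it ranged from 0 (without DMSO replicate 1) to 2 (without AIL replicate 3). With the replicate block, 6 were higher and 1 lower, with 3347 genes higher and 3121 lower of all tested, and the paired exact sign-flip p was 0.25 for each ratio, the smallest possible. For the 9 genes, 122 of 126 alternative values kept their direction and side of the threshold. GCLC, not called, turned to -0.0034 with quantile normalization and ranged from -0.0026 to 0.026 with libraries left out. The difference in the ratio of SLC7A11 to SLC3A2 ranged from -0.0055 to 0.031. Of the named genes of other lists, 594 of 628 values kept both. Those that turned were not called: with quantile normalization BACH1 was at -0.00062, GSTP1 at 0.023 and GSTT2 at -0.018, and with libraries left out BACH1 ranged from -0.023 to 0.039, GSTP1 from -0.020 to 0.029, GSTT2 from -0.092 to 0.086 and AKR1A1 from -0.010 to 0.050. The causes were not tested. Depth limits OSGIN1 most, and the SD rests on 3 libraries per group.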
